A study of Rattus norvegicus with 18 samples.

Results

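The 38 genes described here are markers of vascular endothelium, followed in cultures of neonatal rat cardiomyocytes. They were chosen by name, with earlier results of these data known, as genes whose transcripts mark the cells that line blood and lymphatic vessels. They were matched to array probes by the gene symbol of the platform annotation. Of the 38, 31 had a probe among the 12198 genes of the larger array design, and 29 passed the filter on low values, of 9953 genes tested. On the smaller design 21 had a probe, of 6455 genes. Cd34, Cdh5, Ecscr, Eng, Mmrn2, Ptprb and Rasip1 had no probe matched by symbol in either table and were not analysed here, so the adherens junction cadherin of endothelium (Cdh5) is missing from all that follows. Aplnr, the apelin receptor, and Clec14a, a C-type lectin, had probes below the filter and were not tested. On the larger design 13 members had several probes, and their brightest probe on average stands for the gene.

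Endothelial cells form the inner wall of vessels and are held together by adhesion molecules at their borders. Their growth and survival run through receptor tyrosine kinases, among them the VEGF receptors Flt1, Kdr and Flt4 and the angiopoietin receptor Tek with its partner Tie1. Transcription factors of the ETS family (Erg, Fli1) and of the SoxF group (Sox7, Sox17, Sox18) maintain their gene programme, and in the heart they are a main non-myocyte population, lining the capillaries that run beside each muscle fibre.

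The cells came from ventricles of day 1 rats (n = 24) and were enriched for cardiomyocytes by serial Percoll density gradients, a step that reduces but need not remove other cells. All dishes spent 24 h in cardiac medium, after which 6 samples were extracted as the time zero group. For the other 12 this medium was diluted to 50% with human embryonic stem cell (hESC) medium that was either unconditioned or conditioned by stem cells, and RNA was taken 24 h or 48 h later (3 samples in each of these 4 groups). Serum was kept at 5% FBS and 10% HS in both media, so time zero differs from the later groups in both medium and time in culture. The larger design held 4 time zero arrays and 2 of each other group, and the smaller design 2 time zero arrays and 1 of each other group. Whether the samples came from separate cell preparations is not given in the labels, so p-values cover the differences between arrays of a group, and these may be technical.

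The labelled cell type was checked first. The 15 cardiomyocyte markers with a probe lay above the floor on all 12 larger arrays, with troponin T (Tnnt2) between 15052 and 36744 in median-scaled intensity. Markers of other cell types were present as well. Of 13 leukocyte markers with a probe, 7 lay above the floor on all 12 arrays (Cd14, Cd163, Cd68, Csf1r, Itgam, Laptm5 and Tyrobp, the last at 252 to 1024), while Lyz2 was at the floor on 12 and Fcer1g on 11. Above the floor on all arrays were also 7 of 11 fibroblast, 9 of 11 mural, 4 of 6 epicardial and mesothelial and 2 of 4 platelet markers. Of 3 erythroid markers Epor, which is not confined to that lineage, measured 321 to 813, and the haemoglobin gene Hba-a2 was at the floor on 11 of 12 arrays. The first principal component, with 35.1% of the variance, separated 3 arrays from the rest, namely unconditioned 48 h replicate 2 and replicates 4 and 5 of time zero. On these 3 arrays the upper quartile of intensity was 22.4 to 25.7 times the lower one, against 38.7 to 47.8 on the other 9. Results below that change without these arrays are given with and without them.

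A group of endothelial markers lay higher after 48 h in either medium than at time zero. In unconditioned medium at 48 h 9 of 29 rose and 1 fell, where 3.47% of all genes tested were called (2.79% rose and 0.673% fell). In conditioned medium 13 rose and 1 fell, where 8.25% of all genes were called (7.38% rose and 0.864% fell). At 24 h 2 members rose in unconditioned medium and none fell, against 1.16% of all genes called (1.07% rose and 0.0904% fell). The conditioned arrays of 24 h had 5 members that rose and none that fell, against 3.85% of all genes called (3.24% rose and 0.613% fell). These calls rest on limma's moderated test of log2 intensity, with a Benjamini-Hochberg adjusted p under 0.05 over 23694 probes. At 24 h the 29 members had a median change of 0.61 (unconditioned) and 0.46 (conditioned), and at 48 h of 1.16 and 0.76, beside 0.07, 0.07, 0.02 and 0.11 over all genes tested. From each log2 change the median over all probes of that comparison was subtracted, 0.19 and 0.18 for 24 h and 0.01 and 0.16 for 48 h (unconditioned, then conditioned). The p-values test the change before this subtraction, so a positive median favours calls of increases over decreases of equal printed size. The 4 comparisons share their time zero arrays, so their calls are not separate observations. Without the 3 arrays that stood apart, the members that rose numbered 5 in both media at 24 h and 13 (unconditioned) and 14 (conditioned) at 48 h, and Kdr fell in all 4 comparisons. The share of all genes called was also larger in that setting, at 3.26% and 11.3% for 24 h and 8.09% and 19% for 48 h (unconditioned, then conditioned). The members gained there were Flt4, Nos3 and Ramp2 at 24 h and Flt4, Icam2, Plvap and Sox18 at 48 h in unconditioned medium, and Sox18 at 48 h in conditioned medium. Leaving out single arrays also moved the counts. In unconditioned medium at 48 h 2 rose without that group's replicate 3 and 5 without time zero replicate 5, with 1.49% and 2.7% of all genes called. In conditioned medium 7 and 6 rose without replicate 2 or 3 of that group, with 2.27% and 1.98% of all genes called. Of the 31 calls of members in these 4 comparisons, 14 ended with no filter on low probes, 13 with only the arrays of the groups compared, 12 with the probes of a gene averaged, 10 with no intensity trend and 6 with array weights. In this bulk RNA, a larger share of endothelial cells, more transcript per endothelial cell and transcript from other cell types cannot be told apart.

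**Figure D1:**
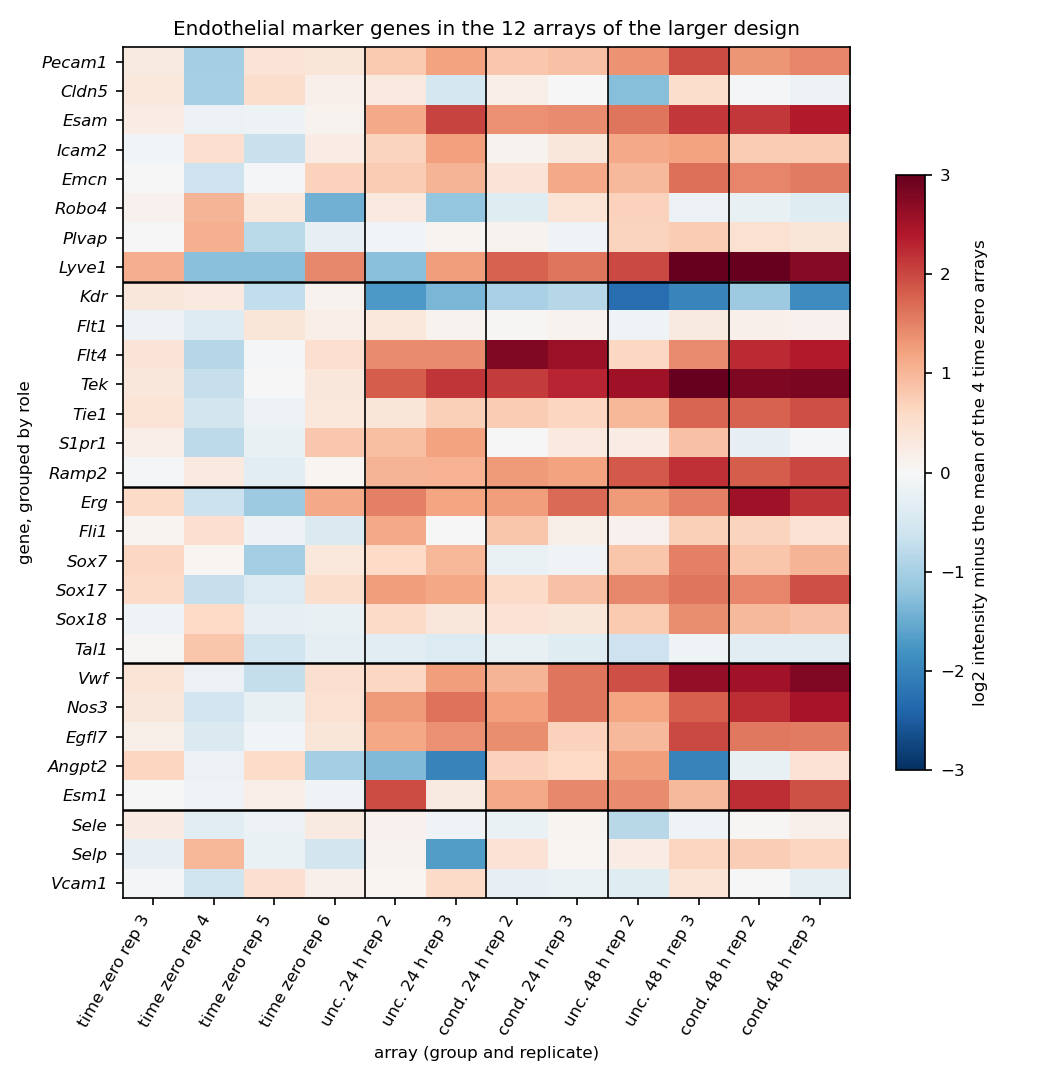
Heat map of the 29 tested endothelial markers (rows, grouped by role) on the 12 arrays of the larger design (columns), coloured by log2 intensity minus the mean of the 4 time zero arrays, with colours limited to -3 and 3. Tek, Esam, Vwf and Nos3 are red on each medium array, Kdr is blue there, and Flt4 is darkest at 24 h in conditioned medium.

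The 13 members that rose in at least 1 comparison with time zero were Egfl7, Emcn, Erg, Esam, Esm1, Flt4, Nos3, Pecam1, Ramp2, Sox17, Tek, Tie1 and Vwf. ETS factors act through sites with a GGAA core. Such motifs were counted in the first 250 bases of each entry in RefSeq's promoter table (build GRCr8). That table held 22 of the 38 members and 7 of these 13. Bases inside the annotated gene were not removed for the counts, which are therefore not of upstream bases alone. The letters AGGAAG, on either strand, occurred in 6 of the 7 (Egfl7, Emcn, Erg, Flt4, Nos3 and Tie1, but not Esm1) and in 14 of the 22, against 29.5% of 33469 promoters. This motif was picked from 12 counted after the counts were seen, and the bare core GGAA is in 93.2% of promoters, so the counts are a description and not evidence of a site. Shown here are the upstream bases of Flt4, the member with the smallest p between the media, of Nos3 and Emcn, both higher at 48 h, and of Kdr, the member that fell. Capitals mark AGGAAG or its reverse complement CTTCCT, and each sequence runs 5′ to 3′ on the gene's strand. In these printed stretches only, bases inside the annotated gene are left out, which leaves 227 bases for Nos3, 156 for Emcn and 218 for Kdr. The stretches are chr10:34414584-34414833 on the plus strand for Flt4, chr4:11706605-11706831 on the minus strand for Nos3, chr2:228564289-228564444 on the plus strand for Emcn and chr14:32571813-32572030 on the plus strand for Kdr.
Flt4: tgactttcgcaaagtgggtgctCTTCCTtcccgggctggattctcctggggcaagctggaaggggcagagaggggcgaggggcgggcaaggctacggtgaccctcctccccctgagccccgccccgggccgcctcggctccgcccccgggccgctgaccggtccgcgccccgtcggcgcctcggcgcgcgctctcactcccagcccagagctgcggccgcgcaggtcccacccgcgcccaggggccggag
Nos3: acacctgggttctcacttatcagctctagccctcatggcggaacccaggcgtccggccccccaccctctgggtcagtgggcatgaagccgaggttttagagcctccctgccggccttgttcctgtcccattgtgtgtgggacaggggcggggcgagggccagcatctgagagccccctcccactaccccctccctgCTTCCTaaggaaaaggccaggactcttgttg
Emcn: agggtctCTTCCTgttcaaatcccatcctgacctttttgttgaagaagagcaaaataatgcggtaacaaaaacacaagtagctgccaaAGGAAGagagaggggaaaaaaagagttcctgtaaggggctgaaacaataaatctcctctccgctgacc
Kdr: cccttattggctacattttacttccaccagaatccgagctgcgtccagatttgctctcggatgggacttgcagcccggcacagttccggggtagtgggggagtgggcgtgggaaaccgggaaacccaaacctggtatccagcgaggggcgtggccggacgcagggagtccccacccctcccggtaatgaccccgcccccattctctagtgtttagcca
The Emcn stretch holds the motif on both strands, those of Flt4 and Nos3 hold it once, and the Kdr stretch does not hold these letters.

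Among the receptors, Tek and Tie1 rose together at 48 h while Kdr fell. Tek, the angiopoietin receptor Tie2, measured 93.7, 45.8, 73.1 and 93.7 on the 4 time zero arrays. It measured 259 and 324 at 24 h and 430.0 and 723 at 48 h in unconditioned medium, and 314 and 362, then 516 and 520.3, in conditioned medium. No medium array overlapped time zero, and the level at 48 h was above that at 24 h in both media. How many of all probes separate in this way was not counted, here or for the genes below. With so few arrays it often occurs without a difference, so it is a description only. By limma Tek rose by 1.79 ± 0.35 (adjusted p = 0.0079) and 2.01 ± 0.35 (adjusted p = 0.00118) at 24 h, and by 2.91 ± 0.35 (adjusted p = 0.000244) and 2.65 ± 0.35 (adjusted p = 7.2e-05) at 48 h, in unconditioned and conditioned medium. Tek had 3 probes, of which the others lay below the filter, and all 4 calls ended when the probes were averaged. The changes were then 0.41 and 0.98 at 24 h (adjusted p = 0.836 and 0.505) and 1.15 and 0.67 at 48 h (adjusted p = 0.569 and 0.612). At 24 h the call in unconditioned medium ended without replicate 2 or 3 of that group (adjusted p = 0.0562 and 0.236), and the call in conditioned medium without its replicate 3 (adjusted p = 0.0529).

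Tie1, the orphan partner of Tek, measured 297, 153, 198 and 276 at time zero, 286 and 365 in unconditioned medium and 381 and 351 in conditioned medium after 24 h. At 48 h it measured 447 and 744 in unconditioned and 759 and 846 in conditioned medium, each above every time zero array. It rose at 48 h by 1.36 ± 0.33 in unconditioned (limma adjusted p = 0.0302) and 1.68 ± 0.33 in conditioned medium (adjusted p = 0.00211), while at 24 h it was at 0.35 ± 0.33 and 0.53 ± 0.33 and did not pass. The call in unconditioned medium ended without that group's replicate 3 (adjusted p = 0.27), without time zero replicate 5 (adjusted p = 0.0721), or without any 1 conditioned array (adjusted p from 0.0572 to 0.0585). The call in conditioned medium ended without its replicate 3 (adjusted p = 0.071). With the 2 Tie1 probes averaged both calls ended, at 0.94 (adjusted p = 0.581) in unconditioned and 0.82 (adjusted p = 0.434) in conditioned medium.

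Kdr, the main VEGF signalling receptor of endothelium (VEGFR2), went the other way. It measured 538, 517, 255 and 458 at time zero, against 129 and 163 in unconditioned medium and 217 and 235 in conditioned medium after 24 h, and 87.4 and 107, then 198 and 114, at 48 h. Each medium array lay below the lowest time zero array. Kdr fell by 2.15 ± 0.36 on the log2 scale in unconditioned (limma adjusted p = 0.00249) and by 1.66 ± 0.36 in conditioned medium at 48 h (adjusted p = 0.016). At 24 h it was at -1.74 ± 0.36 (adjusted p = 0.0502) and -1.09 ± 0.36 (adjusted p = 0.207). The call in conditioned medium ended without conditioned 48 h replicate 3 (-1.25, adjusted p = 0.396), with no filter on low probes, or with the 2 Kdr probes averaged, and the call in unconditioned medium ended with the probes averaged (-1.28 and -2.05, adjusted p = 0.359 and 0.116). Without the 3 arrays that stood apart, Kdr also passed as lower at 24 h in both media.

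Flt1, the VEGF receptor that also acts as a decoy, stayed within its time zero range on all 8 medium arrays. It measured 277, 236, 398 and 353 at time zero, 385 and 334 (unconditioned) and 318 and 333 (conditioned) at 24 h, and 282 and 376, then 344 and 340.0, at 48 h. Its changes ran from -0.11 to 0.06, none of which passed. Of the 3 VEGF receptors measured here, Kdr fell at 48 h, Flt4 rose in conditioned medium, and Flt1 did not pass in any comparison.

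Ramp2, which joins the calcitonin receptor-like receptor to form the adrenomedullin receptor, measured 194, 249, 163 and 211 at time zero. It measured 411 and 419 in unconditioned medium and 489 and 464 in conditioned medium after 24 h, and 722 and 918, then 711 and 807, at 48 h, with no overlap with time zero. It rose by 1.06 ± 0.29 at 24 h in conditioned medium (limma adjusted p = 0.0215), and by 2.0 ± 0.29 (adjusted p = 0.000853) and 1.74 ± 0.29 (adjusted p = 0.000416) at 48 h. At 24 h in unconditioned medium it was at 0.85 ± 0.29 (adjusted p = 0.123). The call at 24 h ended without replicate 2 or 3 of that group (adjusted p = 0.324 and 0.28), time zero replicate 5 (adjusted p = 0.0533) or conditioned 48 h replicate 2 (adjusted p = 0.0503). S1pr1, the receptor for sphingosine-1-phosphate, did not pass in any comparison with time zero.

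**Figure D2:**
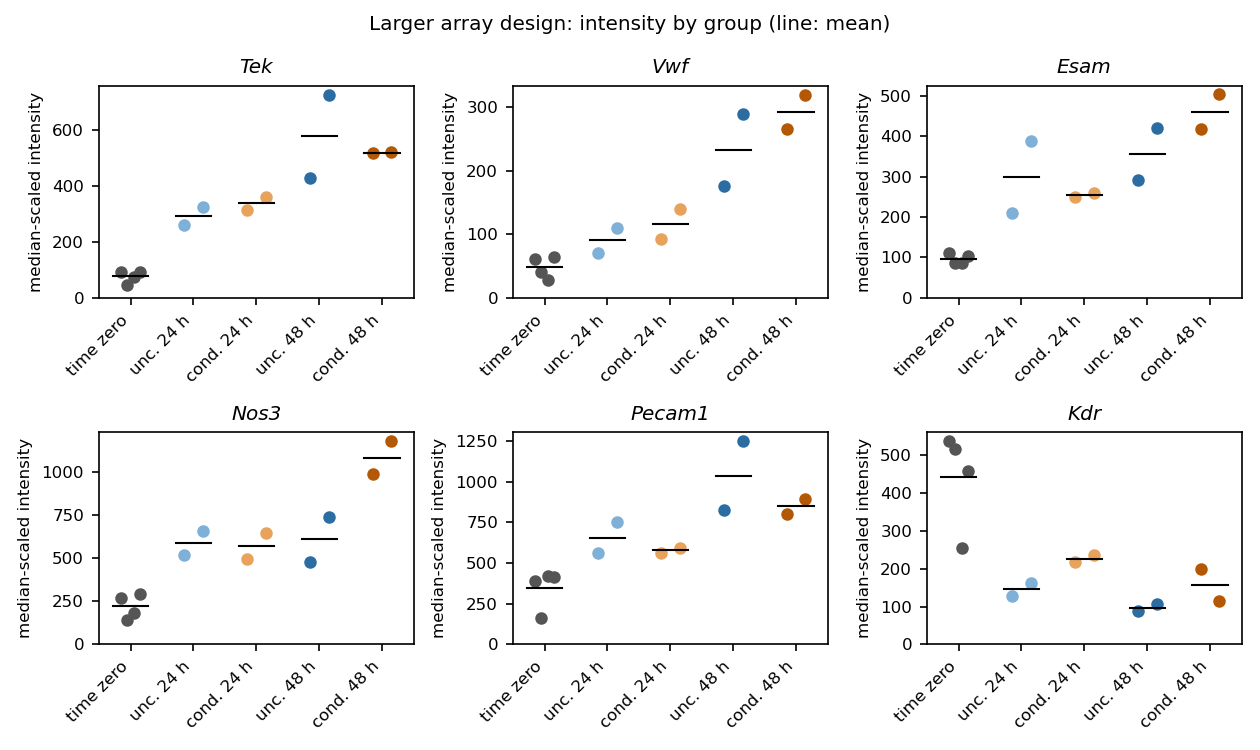
Median-scaled intensity of 6 endothelial markers on the 12 larger arrays (points: arrays, lines: group means; 4 time zero arrays, 2 of each other group). Tek, Vwf, Esam, Nos3 and Pecam1 are above every time zero array in all medium groups, and Kdr is below every time zero array.

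At cell borders and on the surface, 3 of 8 tested members rose in conditioned medium at 48 h (Esam, Emcn and Pecam1) and 2 in unconditioned medium (Esam and Pecam1). The shares of all genes that rose were 7.38% and 2.79%. Esam, an adhesion molecule of endothelial tight junctions and platelets, measured 112, 85.6, 85.9 and 104 at time zero. It measured 211 and 389 in unconditioned medium and 250.3 and 259 in conditioned medium after 24 h, and 293 and 421, then 419 and 504, at 48 h. All medium arrays were higher than all time zero arrays. Esam rose by 1.39 ± 0.32 (limma adjusted p = 0.024) and 1.22 ± 0.32 (adjusted p = 0.0212) at 24 h, and by 1.86 ± 0.32 (adjusted p = 0.00311) and 2.09 ± 0.32 (adjusted p = 0.000274) at 48 h. At 48 h the call in unconditioned medium ended without its replicate 3 (adjusted p = 0.0637). At 24 h the call in unconditioned medium ended without its replicate 3 (1.00, adjusted p = 0.689), time zero replicate 5 or any 1 conditioned array (adjusted p from 0.0525 to 0.0657). That in conditioned medium ended without replicate 2 or 3 (adjusted p = 0.255 and 0.3) or time zero replicate 5 (adjusted p = 0.0501).

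Pecam1 (CD31), the adhesion molecule used most widely to stain endothelium, measured 391, 160.2, 421 and 416 at time zero, where replicate 4 stood below the others. It measured 561 and 752 in unconditioned medium and 562 and 595 in conditioned medium after 24 h, and 827 and 1249, then 804 and 897, at 48 h. The medium groups did not overlap time zero. The increases at 48 h were 1.64 ± 0.38 (limma adjusted p = 0.0207) and 1.23 ± 0.38 (adjusted p = 0.0322), and those at 24 h (0.82 and 0.66) did not pass. The call in unconditioned medium ended without its replicate 3 (adjusted p = 0.186). That in conditioned medium ended without replicate 2 or 3 (adjusted p = 0.218 and 0.33) or without either conditioned 24 h array (adjusted p = 0.0531 and 0.0542). A second, dimmer Pecam1 probe did not pass in any comparison (0.87 and 0.38 at 48 h), and with both probes averaged the calls ended (1.25 and 0.82, adjusted p = 0.252 and 0.306). Emcn, the sialomucin endomucin of capillaries and veins, measured 70.1, 45.9, 69.3 and 114 at time zero, 119.7 and 145 in unconditioned medium and 92.4 and 155 in conditioned medium after 24 h. At 48 h it measured 139 and 225 in unconditioned and 197 and 209.9 in conditioned medium, above all time zero arrays. It rose by 1.36 ± 0.40 in conditioned medium after 48 h (limma adjusted p = 0.0278), and stood at 1.30 ± 0.40 in unconditioned medium (adjusted p = 0.0969). The Emcn call ended without replicate 2 or 3 of its group (adjusted p = 0.227 and 0.297) or time zero replicate 5 (adjusted p = 0.0555).

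The other 5 members of this group did not pass. Icam2, an endothelial and leukocyte adhesion molecule, was at 1.16 ± 0.33 in unconditioned (limma adjusted p = 0.0741) and 0.59 ± 0.33 in conditioned medium at 48 h. Lyve1, the hyaluronan receptor of lymphatic vessels and some macrophages, was at 2.55 ± 0.96 and 2.75 ± 0.96, with 3 of 12 arrays at the floor, where values have no order. The tight junction protein Cldn5, the guidance receptor Robo4 and Plvap, a protein of endothelial diaphragms, lay between -0.46 and 0.70 at 48 h.

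Of the 6 transcription factors, Sox17 rose in both media and Erg in conditioned medium, both at 48 h, where 2.79% (unconditioned) and 7.38% (conditioned) of all genes rose. Sox17, a SoxF factor of arterial endothelium, measured 137, 57.2, 70.2 and 134 at time zero, 219.8 and 207 in unconditioned medium and 138 and 170.0 in conditioned medium after 24 h. At 48 h it measured 252 and 283 in unconditioned and 257 and 351 in conditioned medium, with no overlap with time zero, and it rose by 1.51 ± 0.38 (limma adjusted p = 0.0342) and 1.53 ± 0.38 (adjusted p = 0.0105). Its call in unconditioned medium was lost under 14 of 25 alternatives, among them the omission of any 1 medium array or of time zero replicate 5 (adjusted p from 0.054 to 0.175). The call in conditioned medium ended without replicate 2 or 3 of that group (adjusted p = 0.0723 and 0.252). With its probes averaged Sox17 was at 0.59 (adjusted p = 0.768) in unconditioned and 0.57 (adjusted p = 0.558) in conditioned medium, and both calls ended. Erg, an ETS factor of mature endothelium, measured 53.5, 23.2, 17 and 79.6 at time zero. It measured 102 and 81.3 in unconditioned medium and 85.5 and 116 in conditioned medium after 24 h, and 86.8 and 103, then 209 and 159.6, at 48 h. Erg rose by 2.18 ± 0.53 in conditioned medium after 48 h (limma adjusted p = 0.0123), and stood at 1.38 ± 0.53 in unconditioned medium (adjusted p = 0.225). The Erg call ended without replicate 2 or 3 of that group (adjusted p = 0.203 and 0.114). The other SoxF factors did not pass, with Sox18 at 1.08 ± 0.32 and 0.76 ± 0.32 and Sox7 at 1.16 ± 0.50 and 0.76 ± 0.50 at 48 h in unconditioned and conditioned medium. Fli1, the other ETS factor, was at 0.41 and 0.39, and Tal1, a factor of blood and endothelial precursors, at -0.39 and -0.50.

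Among secreted proteins and enzymes 4 of 5 rose in conditioned medium at 48 h (Vwf, Nos3, Egfl7 and Esm1) and 3 in unconditioned medium (Vwf, Nos3 and Egfl7). Of all genes 7.38% and 2.79% rose. Vwf, the von Willebrand factor that endothelium stores and releases for platelet adhesion, measured 61.4, 41, 28.2 and 64.5 at time zero. It measured 71.1 and 111 in unconditioned medium and 93.3 and 140.4 in conditioned medium after 24 h, and 177 and 289.6, then 266 and 319, at 48 h. Its groups did not overlap time zero, and the gap was wider at 48 h. Vwf rose at 48 h by 2.28 ± 0.42 (limma adjusted p = 0.00429) and 2.49 ± 0.42 (adjusted p = 0.000637), and stood at 0.75 ± 0.42 (adjusted p = 0.468) and 1.13 ± 0.42 (adjusted p = 0.108) at 24 h. The call in unconditioned medium ended without its replicate 3 (2.12, adjusted p = 0.0873).

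Nos3, the endothelial nitric oxide synthase, which cardiomyocytes also express, measured 268, 142, 182 and 291 at time zero. It measured 516 and 656 in unconditioned medium and 495 and 646 in conditioned medium after 24 h, and 478 and 739, then 989 and 1178, at 48 h. All medium arrays were higher than time zero, and at 48 h both conditioned arrays were above both unconditioned ones. Nos3 rose by 1.24 ± 0.34 at 24 h in conditioned medium (limma adjusted p = 0.0273), by 1.48 ± 0.34 at 48 h in unconditioned medium (adjusted p = 0.0212) and by 2.19 ± 0.34 at 48 h in conditioned medium (adjusted p = 0.000301). At 24 h in unconditioned medium it was at 1.27 ± 0.34 (adjusted p = 0.0542). The call at 24 h ended without replicate 2 or 3 of its group (adjusted p = 0.171 and 0.456), either conditioned 48 h array (adjusted p = 0.0507 and 0.0506) or time zero replicate 5 (adjusted p = 0.0732). The call at 48 h in unconditioned medium ended without its replicate 3 (adjusted p = 0.201) or time zero replicate 5 (adjusted p = 0.0572).

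Egfl7, a matrix-bound factor secreted by endothelium, measured 148, 97.7, 124 and 169.9 at time zero, 295 and 344 in unconditioned medium and 346 and 213 in conditioned medium after 24 h. It measured 259 and 521 in unconditioned medium and 396 and 389 in conditioned medium after 48 h, again above every time zero array. It rose at 48 h by 1.46 ± 0.35 (limma adjusted p = 0.0269) and 1.41 ± 0.35 (adjusted p = 0.0106). The first call ended without its replicate 3 (adjusted p = 0.297), time zero replicate 5 (adjusted p = 0.0608) or either conditioned 48 h array (adjusted p = 0.0512 and 0.0516), and the second without replicate 2 or 3 of its group (adjusted p = 0.148 and 0.152). Esm1 (endocan), a secreted proteoglycan of growing vessels, measured 66.5, 60.7, 75 and 61.4 at time zero, 255 and 79.5 in unconditioned medium and 143 and 178 in conditioned medium after 24 h, and 175 and 128, then 303 and 248, at 48 h. It rose by 1.90 ± 0.41 in conditioned medium after 48 h (limma adjusted p = 0.00419), and stood at 1.18 ± 0.41 in unconditioned medium (adjusted p = 0.154). The Esm1 call ended without replicate 2 or 3 of its group (adjusted p = 0.114 and 0.059). Angpt2, the angiopoietin that destabilises vessels, was at the floor on 2 of 12 arrays and did not pass.

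None of the 3 adhesion molecules of activated endothelium rose, and their changes from time zero ran from -0.98 to 0.52. E-selectin (Sele) was at -0.49 ± 0.31 and -0.07 ± 0.31, P-selectin (Selp) at 0.42 ± 0.53 and 0.52 ± 0.53, and Vcam1, the receptor for leukocyte integrin, at 0.01 ± 0.34 and -0.30 ± 0.34 at 48 h in unconditioned and conditioned medium. None of these 3 was called in any comparison, and P-selectin is also a platelet protein.

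**Figure D3:**
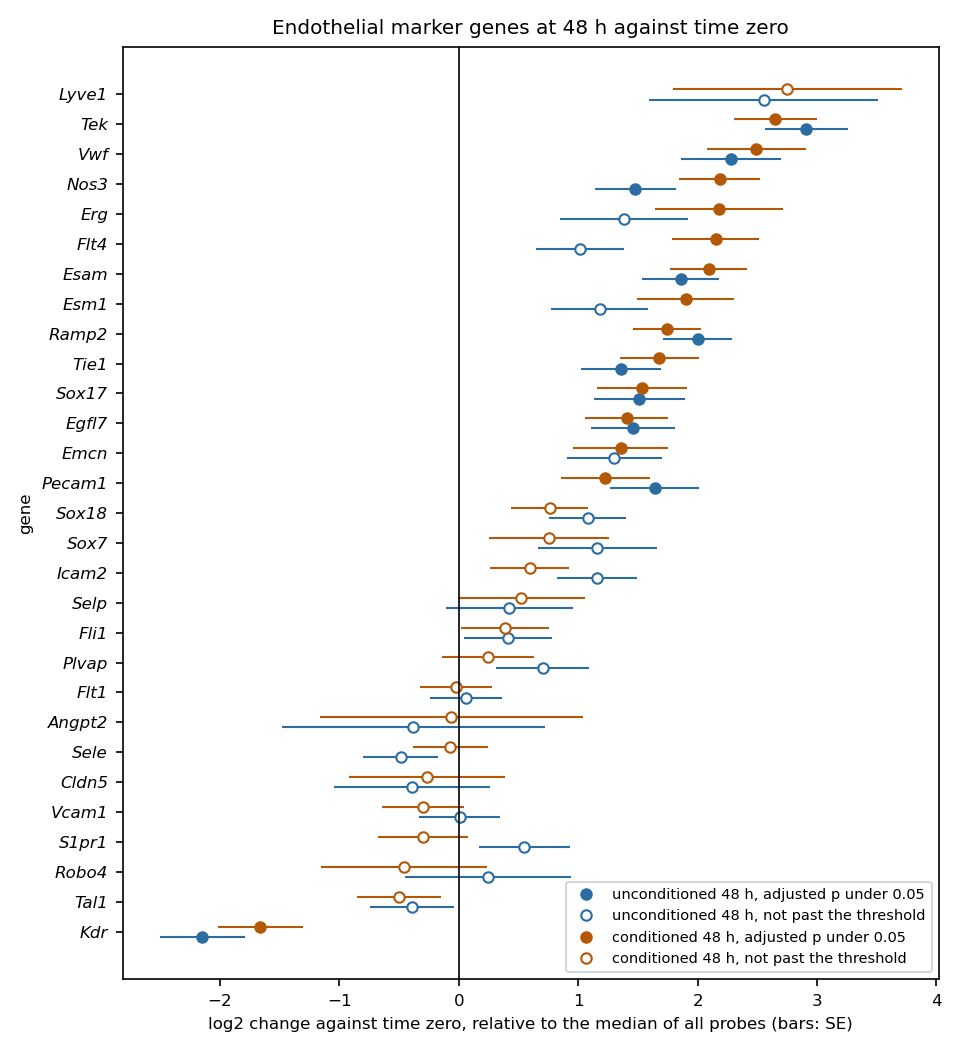
Log2 change at 48 h against time zero for the 29 tested endothelial markers, in unconditioned (blue) and conditioned (orange) medium, after subtraction of the all-probe median (bars: SE; filled points: adjusted p under 0.05). Points to the right of 0 are filled for 9 genes in unconditioned and 13 in conditioned medium, and Kdr is filled on the left in both.

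Several genes had a further probe above the filter, which can read another part of the transcript. A second Flt4 probe rose at 24 h in both media (1.71 and 3.33) and at 48 h in conditioned medium (3.13). Second probes of Erg and Vwf also rose in conditioned medium at 48 h, by 3.57 ± 0.89 (limma adjusted p = 0.0162) and 2.86 ± 0.85 (adjusted p = 0.0395). The size for Erg depends on the floor, where 3 of the 12 arrays lay for that probe. For Tal1 the probes disagreed, since a dimmer probe rose at 48 h by 1.60 ± 0.38 (limma adjusted p = 0.0252) and 1.37 ± 0.38 (adjusted p = 0.0209) while the brightest one did not. Second probes of Sox17 and Vcam1 did not pass.

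The study's central question was what stem cell conditioned medium does that unconditioned medium does not. Over both times (4 arrays against 4) none of the 29 endothelial markers was called by limma, while 1.03% of all genes were called. At an unadjusted p under 0.05 there were 3 members, beside 10.7% of all genes. Of all genes 0.683% were called higher and 0.352% lower. At 24 h none was called, against 0.311% of all genes (0.151% higher, 0.161% lower), and 1 had an unadjusted p under 0.05, beside 4.83% of all genes. At 48 h none was called, against 0.161% of all genes (0.1% higher, 0.0603% lower), and 2 had an unadjusted p under 0.05, beside 9.09% of all genes. The members' median was -0.03 for both times together, -0.03 for 24 h and -0.01 for 48 h, beside 0.05, 0.01 and 0.07 over all genes. The medians subtracted here were 0.09, 0.01 and 0.18. A p that misses the threshold does not show equal levels, and Emcn, Erg, Esm1 and Flt4, called at 48 h in conditioned medium only, did not pass the direct comparison of the media.

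Flt4, the receptor for VEGF-C and VEGF-D that is best known from lymphatic endothelium, came closest. Its brightest probe measured 187, 78.6, 138 and 204 at time zero, 381 and 380.4 in unconditioned medium and 979 and 866 in conditioned medium after 24 h, and 221 and 384 against 678 and 743 at 48 h. At both times the conditioned arrays lay above the unconditioned ones, which lay above time zero. With so few arrays in a group, such a separation often occurs without a difference. Its share over all probes was not counted, here or for the other genes. Against time zero Flt4 rose in conditioned medium by 2.51 ± 0.37 at 24 h (limma adjusted p = 0.000289) and 2.15 ± 0.37 at 48 h (adjusted p = 0.000695). Its change in unconditioned medium was 1.23 ± 0.37 (adjusted p = 0.096) and 1.02 ± 0.37 (adjusted p = 0.18). Conditioned minus unconditioned, the difference was 1.19 ± 0.30 for both times together (limma adjusted p = 0.053). It was 1.27 ± 0.42 for 24 h alone (adjusted p = 0.524) and 1.11 ± 0.42 for 48 h alone (adjusted p = 0.374). The comparison over both times passed under 14 of 26 alternatives. Both numbers include the second probe described below, which is therefore not a separate check. The limma adjusted p was 0.00107 with array weights and 0.17 with no filter on low probes. Leaving out the 3 arrays that stood apart gave 1.10 over both times and 1.27 at 24 h.

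The second Flt4 probe, an alternative chosen after the data were seen, measured 41.3, 28, 28.8 and 26 at time zero. It measured 103 and 125 in unconditioned medium and 341 and 356 in conditioned medium after 24 h, and 42.3 and 84.2 against 281 and 317 at 48 h. Again no conditioned array overlapped an unconditioned one. With this probe Flt4 was higher in conditioned medium by 1.89 ± 0.32 over both times (limma adjusted p = 0.00332) and 2.15 ± 0.45 at 48 h (adjusted p = 0.0457), and stood at 1.61 ± 0.45 at 24 h (adjusted p = 0.283). The call over both times held in each of 23 alternatives run for this probe (adjusted p from 0.000214 to 0.0417). The call at 48 h was lost in 12 of the 23 (adjusted p from 0.0086 to 0.712). It ended with quantile normalization (0.0512), no filter (0.168) or no trend (0.0637). It also ended without conditioned 48 h replicate 2 or 3 (0.388 and 0.712), unconditioned 48 h replicate 2 (0.363), any 1 array of 24 h (0.071 to 0.141), or time zero replicate 3 or 5 (0.058 and 0.0551).

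S1pr1 and Icam2 had the smallest p among members lower in conditioned medium. S1pr1 measured 4804, 2443, 3631 and 7359 at time zero, 7818 and 9720.2 in unconditioned against 4227 and 5134 in conditioned medium at 24 h, and 4948 and 7797 against 3564 and 4127 at 48 h. Its conditioned arrays lay below the unconditioned ones at each time and within the wide time zero range. The difference was -0.88 ± 0.31 over both times (limma adjusted p = 0.316), and it passed under 6 of 24 alternatives, one of which left out the 3 arrays that stood apart (-0.94, adjusted p = 0.00786, with a range of 0.00301 to 0.999 over the alternatives). Icam2 measured 215, 326, 144 and 266 at time zero, 361 and 531 in unconditioned against 244 and 289.6 in conditioned medium at 24 h, and 498 and 526 against 385 and 384 at 48 h. It stood at -0.65 ± 0.27 over both times (limma adjusted p = 0.468). Among members higher in conditioned medium Kdr followed Flt4, at 0.55 ± 0.29 over both times (adjusted p = 0.427), and Nos3 was next at 48 h, at 0.68 ± 0.39 (adjusted p = 0.546). At 24 h Angpt2 was second, at 2.30 ± 1.27 (adjusted p = 1), a value set by the floor.

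**Figure D4:**
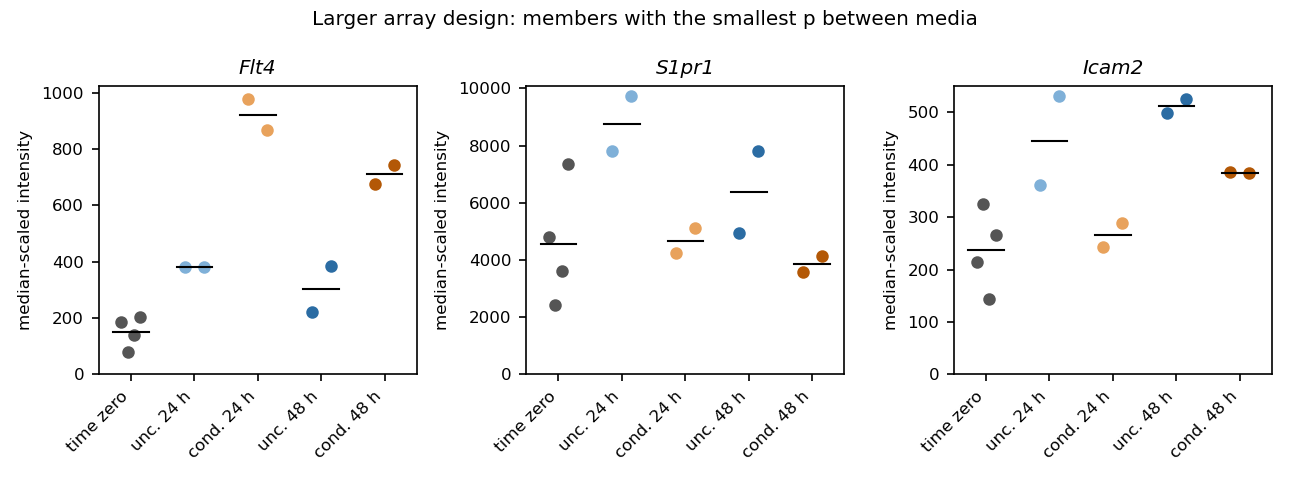
Median-scaled intensity of Flt4, S1pr1 and Icam2 on the 12 larger arrays (points: arrays, lines: group means). For Flt4 the 2 conditioned arrays at each time are above the 2 unconditioned ones, and for S1pr1 and Icam2 they are below.

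The medium effect was not called as different between 24 h and 48 h for any member (limma, none of 29 at an unadjusted p under 0.05, and 0% of all genes called). The smallest p among increases belonged to Nos3 (0.72 ± 0.56) and Sele (0.45 ± 0.51), and among decreases to Angpt2 (-2.02 ± 1.80) and Selp (-0.97 ± 0.87), all with an adjusted p = 1.

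The smaller design, with 1 array in each medium group, allowed directions to be compared for 13 members above the filter in both tables, and gives values with no test. Its 2 conditioned arrays had a ratio of upper to lower quartile of 16.3 and 16.6, against 27.2 to 54.1 on its other 4 arrays. All calls of these members against time zero on the larger design had the same sign here, 2 of 2 and 4 of 4 at 24 h and 6 of 6 and 8 of 8 at 48 h, in unconditioned and conditioned medium. Over all 13 members the sign was the same for 13 and 10 at 24 h and for 13 and 12 at 48 h. Signs are those after subtraction of each design's median change, on the smaller design 0.004 and -0.25 at 24 h and 0.08 and -0.26 at 48 h. The share of all genes with the same sign on both designs was not computed, for these counts or for those between the media below. The counts therefore cannot be set against a general agreement of the designs. Tek measured 138 and 163 at time zero, 513 and 241 at 24 h and 1144 and 586 at 48 h (unconditioned, then conditioned). Pecam1 measured 294 and 513 at time zero, 941 and 695 at 24 h and 1816 and 1071 at 48 h. Ramp2 measured 71.2 and 19.6 at time zero, 149 in both media at 24 h and 265 and 252 at 48 h. For each of the 3 the medium arrays were above both time zero arrays. Kdr, Vwf, Erg and S1pr1 were among the members below the filter there.

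Between the media the sign was the same on both designs for 9 of 13 members over both times, 7 of 13 at 24 h and 9 of 13 at 48 h. These signs are after subtraction of the median change, on the smaller design -0.32, -0.29 and -0.38, as are the differences below. Many of the signs rest on it. Over both times Tie1, Esam, Flt1, Sox17, Sox18 and Ramp2 were positive there only after the subtraction. Flt4 measured 55.3 and 52.5 at time zero on the smaller design, 129 in unconditioned against 297 in conditioned medium at 24 h, and 124 against 300.4 at 48 h. After that subtraction its difference between the media was 1.49 at 24 h and 1.65 at 48 h, which is larger than the intensities alone give. Icam2 measured 268 and 393 at time zero, 602 against 277 at 24 h and 868 against 357 at 48 h. Its difference after the subtraction was -0.83 and -0.91, smaller than the intensities alone give. Both genes thus kept the direction seen on the larger design at each time. Tek was at -0.81 and -0.59 here, while it was at 0.21 and -0.28 on the larger design.

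**Figure D5:**
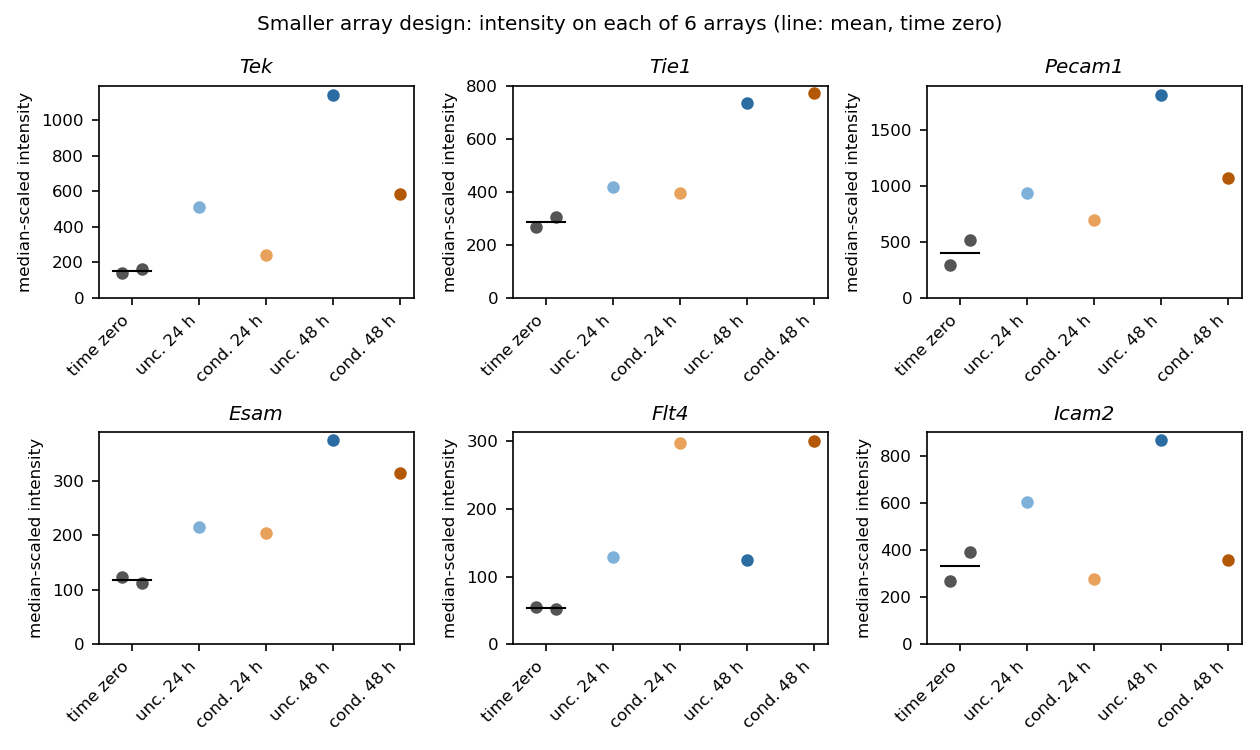
Median-scaled intensity of 6 endothelial markers on the 6 arrays of the smaller design (2 time zero arrays, 1 of each other group; the line is the time zero mean). Tek, Tie1, Pecam1, Esam and Flt4 are above both time zero arrays in all medium groups, and Flt4 is higher and Icam2 lower in conditioned than in unconditioned medium.

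Of 20 tested ligands and partners of these receptors, none rose or fell in unconditioned medium by limma at either time. Of all genes 1.16% were called there at 24 h and 3.47% at 48 h. At such shares a list of this size can hold no call, so this is no result about the ligands. In conditioned medium 1 of the 20 rose at 24 h and 3 at 48 h, where 3.85% and 8.25% of all genes were called. In conditioned medium Sphk1, a kinase that makes sphingosine-1-phosphate, rose at 24 h (1.07 ± 0.32, adjusted p = 0.0374) and at 48 h (1.04 ± 0.32, adjusted p = 0.0283). Apln, the ligand of the apelin receptor, rose by 1.45 ± 0.36 (adjusted p = 0.0101) and Tgfb1 by 2.93 ± 0.71 (adjusted p = 0.0128) at 48 h. Vegfa, the main ligand of Kdr and Flt1, was at -0.68 ± 0.33 (adjusted p = 0.392) in unconditioned and 0.17 ± 0.33 (adjusted p = 0.65) in conditioned medium at 48 h. The list's median at 48 h was 0.12 in unconditioned and 0.15 in conditioned medium. Between the media over both times 1 of the 20 was called, where 1.03% of all genes were. This was Slit2, a ligand of Robo receptors, higher in conditioned medium by 1.49 ± 0.35 (limma adjusted p = 0.0386).

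Of 24 tested genes of endothelial regulation and coagulation outside the members, 4 rose in unconditioned medium and 6 in conditioned medium after 48 h, and none fell, where 2.79% and 7.38% of all genes rose. The median change of the list was -0.15 (range -1.25 to 2.30) in unconditioned and 0.25 (range -2.72 to 4.47) in conditioned medium, beside 0.02 and 0.11 over all genes. Thbd, the thrombin receptor thrombomodulin that makes endothelium anticoagulant, rose by 2.10 ± 0.30 (limma adjusted p = 0.000813) and 4.47 ± 0.30 (adjusted p = 2.61e-07). Procr, the endothelial protein C receptor, rose by 1.80 ± 0.37 (adjusted p = 0.0102) and 2.77 ± 0.37 (adjusted p = 8.25e-05), and Cav1, the caveolar coat protein, by 1.66 ± 0.33 (adjusted p = 0.0073) and 2.02 ± 0.33 (adjusted p = 0.000414). The fourth gene in both media was Plat, tissue plasminogen activator (1.38 ± 0.36 and 1.55 ± 0.36), and in conditioned medium Ece1, the endothelin converting enzyme, and Cav2 rose as well. At 24 h 2 rose in unconditioned (Thbd and Procr) and 4 in conditioned medium (Thbd, Procr, Cav1 and Plat), where 1.07% and 3.24% of all genes rose. Between the media over both times, 2 of the 24 were called, Thbd and the adhesion molecule Icam1, both higher in conditioned medium, where 1.03% of all genes were called.

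Markers of other cell types moved over the same hours, and their part in the endothelial result was not tested. No cell type was assigned from them. Of all genes tested, 2.79% rose and 0.673% fell at 48 h in unconditioned medium. In conditioned medium 7.38% rose and 0.864% fell. At 48 h 3 of 7 fibroblast markers rose in unconditioned medium (Col1a1, Thy1 and Postn) and 2 in conditioned medium (Vim and Postn). Summed levels here and below are over all markers of a list with a probe, tested or not. The summed level of the 11 fibroblast markers was 8208 to 14072 at time zero, 17230 to 23721 in unconditioned and 23488 to 24502 in conditioned medium. Of 10 mural markers (smooth muscle and pericytes), 3 rose in unconditioned (Cspg4, Myh11 and Cnn1) and 5 in conditioned medium (Cspg4, Cnn1, Tagln, Kcnj8 and Abcc9). The summed mural level was 23399.6 to 40898 at time zero, 39032 to 54406 in unconditioned and 56506 to 59654 in conditioned medium. Acta2 and Tagln, with medians of 21819 and 8424 over the 12 arrays, were the brightest in this sum. Of 5 epicardial and mesothelial markers 2 rose in each medium, with Krt8 at 2.42 ± 0.35 and 3.42 ± 0.35, and the summed level was 437 to 667 at time zero and 1081 to 3063 and 2671 to 2793 at 48 h. The pericyte gene Rgs5 was at the floor on 9 of 12 arrays and the fibroblast gene Pdgfra on 8. Of 9 leukocyte markers Cd14 rose in unconditioned medium and Cd74 fell in conditioned medium, while 7 others did not pass. The pan-leukocyte antigen Ptprc was at the floor on 7 of 12 arrays, and 7 of the tested markers were above it on all. The summed level of the 13 leukocyte markers with a probe was 1933 to 2786 at time zero, 1850.3 to 2646 in unconditioned and 1506 to 1549 in conditioned medium. The 1 erythroid marker tested, Epor, did not pass. The summed level of the 3 erythroid markers with a probe was 379 to 533 at time zero and 489 to 817 at 48 h. It includes the untested Alas2, which reached 240 on 1 or more of the 12 arrays. Of 3 platelet markers tested none passed. Pf4 (65.3 to 237) and Itgb3 (154 to 508) were above the floor on all arrays, Gp9 was at the floor on 4 and the untested Ppbp on 8, with a summed level of 454 to 545 at time zero and 483 to 639 at 48 h. Of 15 cardiomyocyte markers none rose, while Ckm fell in both media and the atrial light chain Myl7 in conditioned medium. The summed cardiomyocyte level overlapped between the groups, at 207460 to 418162 at time zero, 247077 to 334948 in unconditioned and 292621 to 305332 in conditioned medium.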

How the data were processed

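RNA of 18 samples was biotin-labelled and hybridised to 1-colour CodeLink arrays of 2 designs, per the labels. The authors deposited intensity on a linear scale. How the arrays were scanned, background-corrected and normalized is not given in the sources used here. Probes were named by the platform annotation.

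In each table the arrays were scaled to a common median, floored at 0.05 of it (4.84 for the larger design) and log2-transformed. A filter at the 30th percentile of probe means (intensity 16.5) kept 23694 of 33849 probes. One limma model (version 3.58.1, R 4.3.3) with 5 group means was fitted to the larger design, with trended eBayes (7 residual and 10.4 prior degrees of freedom). It was tested on simulated data, and p-values were adjusted over all probes by Benjamini-Hochberg. The number of arrays limits the precision. The smaller table was compared by direction. Values for single genes are median-scaled intensities, and changes are log2 ± SE. Plots used Python 3.11.15 and matplotlib 3.10.9.

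Members and lists were chosen with earlier results of these data known. Every array is given for each called member and for Pecam1, Kdr, Flt1, Tek, Tie1, Vwf and Nos3, and the 2 smallest p in each direction are named per comparison. Of other lists, up to 4 called genes per comparison are named. Names beyond this rule (Tal1, Lyve1, Sox7, Sox18 and the other members that did not pass, and further markers) were chosen after their values were seen. Alternatives were quantile, cyclic loess and 75th percentile scaling, other filters and floors, array weights, a pseudocount, averaged probes and only the groups compared. Others were no intensity trend, both tables together, without the 3 arrays that stood apart, and each array left out. For Flt4 between the media its second probe was a further alternative, added after the data were seen.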

Additional observations from a re-analysis of the deposited data

Results flagged for a closer look

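Of the 29 members, 2 had a time zero array whose log2 gap to the nearest other was unusually large for 4 arrays, and chance gives about 1 in 20 such groups. For Pecam1 this was replicate 4, at 160.2 against 391 to 421 on the other 3, a gap of 0.924 of the group's range. For Sox18 it was again replicate 4, at 246 against 136 to 148, a gap of 0.858 of the range. Replicate 4 is one of the 3 arrays that stood apart.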

How the results depend on the processing

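No paired analysis was possible because replicate numbers were given in accession order and name no shared dish or preparation. Of 31 calls of members against time zero, 7 held under each alternative (Esam, Flt4, Nos3, Ramp2 and Vwf at 48 h and Flt4 at 24 h in conditioned medium, Ramp2 at 48 h in unconditioned medium), 24 were lost under at least 1, and 0 reversed. The numbers of members called, higher and lower together, against time zero were 2 (unconditioned) and 5 (conditioned) for 24 h, 10 and 14 for 48 h, and 0 between the media. At 24 h in unconditioned medium the number became 6 with array weights, cyclic loess or without the 3 arrays that stood apart, 7 with both tables, 5 with the 50th percentile filter or 75th percentile scaling, 4 with quantile normalization, 1 with no intensity trend or only the groups compared, and 0 with no filter. At 24 h in conditioned medium it became 9 with array weights, 3 with no filter or no trend and 2 with only the groups compared. At 48 h in unconditioned medium it became 4 with array weights, 5 with no filter, no trend or averaged probes and 3 with only the groups compared. At 48 h in conditioned medium it became 9 with both tables, no filter or averaged probes. Between the media over both times it became 2 with array weights, both tables, cyclic loess, quantile normalization, 75th percentile scaling, only the groups compared or without the 3 arrays, and 1 with the 50th percentile filter, averaged probes or the pseudocount. At 24 h between the media it became 1 with array weights and 2 with cyclic loess, only the groups compared or without the 3 arrays, and at 48 h 1 with both tables, cyclic loess or quantile normalization. Both tables together hold 13 members. With each array left out in turn the number ran from 0 to 4 at 24 h in unconditioned, 1 to 6 in conditioned medium, 3 to 13 and 6 to 15 at 48 h, 0 to 1 between the media over both times, and 0 at each time and for the difference between times. The lowest counts came without unconditioned 24 h replicate 3 (0), conditioned 24 h replicate 3 (1), unconditioned 48 h replicate 3 (3) and conditioned 48 h replicate 3 (6). With probes averaged, Tie1 between the media turned to -0.13 and S1pr1 at 24 h to 0.40. Values near background limit Angpt2 and Lyve1, which had arrays at the floor.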
